A study of Mus musculus with 2 samples.

Results

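Neutrophils that carried RNA of Acod1 or Cxcl3 but little of the receptor gene Cxcr2 made up 1473 of the 11698 barcodes deposited for leukocytes of mouse liver tumours. They were 619 of 5088 barcodes in the PBS library and 854 of 6610 in the AKK library. The members were chosen by their raw counts of unique molecular identifiers (UMIs, each standing for 1 captured RNA molecule). A barcode needed at least 200 genes, under 15% mitochondrial UMIs, a UMI of at least 2 of the neutrophil genes Csf3r, Hdc, G0s2 and Il1r2, and at least 3 UMIs of Acod1 and Cxcl3 together. It could hold at most 1 UMI of Cxcr2 and of Siglecf and under 10 of the granule genes Ngp, Camp and Ltf together, and none of the T-cell gene Cd3e, the B-cell gene Cd79a, the macrophage gene C1qa or the monocyte gene F13a1. Levels of these genes are therefore a description of the choice and not a finding.

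All mice were C57BL/6 on an MCD diet, which lacks methionine and choline, and bore liver tumours of the luciferase-labelled hepatocellular carcinoma line RIL-175. One group was given 5e9 CFU of Akkermansia muciniphila (AKK), a mucin-degrading gut bacterium, by mouth, and the other PBS. Gavage began 2 weeks before the diet, the tumour cells were implanted after 2 weeks of diet, and feeding paused for 6 days after the surgery. Leukocytes were enriched on Percoll, sorted as live CD45+ cells and run on the 10x Genomics 3′ v3 kit, so both steps stand before every share given here. The tumours came from 1 transplanted cell line, and the age and sex of the mice and the number pooled per library are not given in the labels. Each group is 1 library, so no difference between groups could be tested. Every interval below is at 95%, reflects counting error alone and holds no spread between mice.

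Acod1 encodes the mitochondrial enzyme that makes itaconate, a metabolite of inflammatory macrophages and neutrophils that inhibits succinate dehydrogenase and switches on the antioxidant factor NRF2. Cxcl3, with Cxcl1 and Cxcl2, encodes a ligand of CXCR2, the receptor that draws neutrophils out of the blood, and these chemokine genes are classical targets of NF-kB. Hdc makes histamine, G0s2 restrains a lipase of fat stores, and neutrophils that age or settle in hypoxic tissue are known to lose granule transcripts and surface CXCR2.

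The stretches just upstream of 6 start sites are shown. Acod1 and Cxcl3 define the members, Cxcl2 tracks them, and Gbp2 and B2m are a pair of interferon-gamma targets in the results that follow. Cxcl1 is shown beside the other CXCR2 ligand genes, and no level of it is given below. All 6 symbols were found among the RefSeq promoters of GRCm38.p6. The 150 bases before the start are written 5′ to 3′ on the coding strand, which is the plus strand for all 6. Capitals mark matches, on either strand, to the letters searched.
Acod1, chr14:103046862-103047011: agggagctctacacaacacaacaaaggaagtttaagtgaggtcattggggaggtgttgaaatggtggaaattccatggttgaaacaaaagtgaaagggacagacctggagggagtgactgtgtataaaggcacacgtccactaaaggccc
Cxcl3, chr5:90785951-90786100: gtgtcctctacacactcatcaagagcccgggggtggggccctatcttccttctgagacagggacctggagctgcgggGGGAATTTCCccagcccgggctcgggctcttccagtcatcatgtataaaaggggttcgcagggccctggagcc
Cxcl2, chr5:90903749-90903898: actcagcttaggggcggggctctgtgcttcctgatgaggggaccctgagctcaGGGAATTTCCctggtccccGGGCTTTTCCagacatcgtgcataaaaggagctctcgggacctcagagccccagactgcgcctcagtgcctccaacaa
Cxcl1, chr5:90891095-90891244: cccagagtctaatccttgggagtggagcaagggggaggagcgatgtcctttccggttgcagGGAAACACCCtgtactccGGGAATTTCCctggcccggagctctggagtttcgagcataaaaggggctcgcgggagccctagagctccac
Gbp2, chr3:142620513-142620662: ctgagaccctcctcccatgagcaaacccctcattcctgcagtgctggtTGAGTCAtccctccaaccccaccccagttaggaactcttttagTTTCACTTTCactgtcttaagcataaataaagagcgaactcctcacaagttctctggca
B2m, chr2:122147537-122147686: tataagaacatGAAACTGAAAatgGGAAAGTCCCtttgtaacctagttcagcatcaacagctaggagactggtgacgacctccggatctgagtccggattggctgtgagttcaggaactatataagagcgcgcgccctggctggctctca

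The kB motif (GGG, any pair of bases, TTTCC) was present in Cxcl3, Cxcl2, Cxcl1 and B2m, and in 0.925% of the 32851 RefSeq promoters over the same 150 bases. In Cxcl3 the match lay 73 to 64 bases before the start, and Cxcl2 and Cxcl1 held a pair each. The interferon-stimulated response motif (GAAA, any pair of bases, GAAA) was present in B2m and, on the reverse strand, in Gbp2, and in 1.59% of all promoters. Gbp2 also held the AP-1 letters TGANTCA, which 4.24% of promoters hold, and none of the 6 held the letters TTCNNNGAA (4.09%) or TTGCNNAA (5.46%). No searched letters matched upstream of Acod1 in this window. A match is a description of the sequence and not a binding site.

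The members held RNA of neutrophil genes that the rule did not use. S100a8, S100a9, Retnlg, Mmp9 and Ly6g were each higher than in T cells of the same libraries, for example Mmp9, a gelatinase of tertiary granules, at 427 CPM (UMIs of a gene per 1e6 UMIs of the set) in PBS and 446 in AKK members against 17.0 and 15.9 in T cells. The whole list of 12 neutrophil markers also holds genes of the rule. Its summed level was 33074 CPM in the PBS and 26921 in the AKK members, against 1789 and 1095 in T cells of the same libraries. These T cells serve here as a rough reference for free RNA. They were barcodes within the same quality limits with a UMI of Cd3e and none of Csf3r, Cd79a, C1qa or F13a1. Csf3r is on the list, so it is at 0 in T cells by choice, and this reference may lie too low. The calprotectin genes S100a9 and S100a8 were high, and the median barcode held 12682 CPM of both together in PBS and 8100 in AKK. Fewer than 10 UMIs of S100a8 and S100a9 were present in 85 PBS members (13.7%) and in 250 AKK members (29.3%), so a larger part of the AKK members was weak in this neutrophil signature. Epx, the defining eosinophil gene, was at 0 in both, but 6 of the 7 eosinophil markers had a UMI in each library. Together the markers were at 46.2 CPM in PBS and 51.3 in AKK members, against 6.26 and 4.41 in T cells. Car4 was the highest of them in members, at 32.0 and 21.2 CPM. The source of this RNA was not tested. The B-cell and monocyte genes named in the rule are at 0 by choice.

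Deep barcodes stood apart. Members held a median of 4559 UMIs in PBS and 3782.5 in AKK, with 3504069 and 4674184 UMIs in all. Those above 10000 UMIs were 44 PBS (7.11%) and 55 AKK members (6.44%), but they held 29.6% and 35.7% of the members' UMIs. Markers of some other cell type outnumbered neutrophil markers in 23 of these 44 and 40 of these 55, against 4 of 575 PBS and 26 of 799 AKK members of at most 10000 UMIs. The markers include genes that the rule required or set at 0, so these counts partly follow from the choice. At any depth this held for 27 PBS and 66 AKK members, and B-cell and plasma markers did so in 0 PBS and 50 AKK members. Summed tumour and hepatocyte markers were at 277 CPM in PBS and 611 in AKK over all members, and at 89.98 and 68.2 CPM without the deep barcodes. Mast cell and basophil markers were at 11.99 CPM in PBS and 214 in AKK, and at 13.8 and 20.6 CPM without them. B-cell and plasma markers were at 581 and 3035 CPM, nearly all of it the antibody gene Igkc, and stayed at 636 and 2760 CPM without them, while T cells held 404 and 1575 CPM of them. The part of other cells or free RNA in the gene results was not tested, so each ratio between libraries is given over all members first and then over the 575 PBS and 799 AKK members of at most 10000 UMIs. That second set was chosen after seeing the data. The libraries shared 8 barcode sequences, of which 1 was a PBS member and none a member in both.

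Acod1 was broad and Cxcl3 patchy among the members. Acod1 and Cxcl3 together had a median of 20 UMIs per PBS member (10th to 90th percentile 4 to 60) and 19 per AKK member (5 to 62). Acod1 was detected in 97.4% of PBS and 97.8% of AKK members and Cxcl3 in 70.4% and 61.9%. With barcodes thinned to 1883 UMIs, which left out 55 PBS and 93 AKK members, Acod1 was in 89.2% and 92.2% and Cxcl3 in 59.8% and 50.2%, against 4.68% and 6.01%, and 4.32% and 3.29%, of T cells (median depths of 9386 and 8888 UMIs before thinning). Members were chosen by these genes, so their contrast with T cells follows from the choice and tests nothing. At the edge of the rule, 36 PBS and 51 AKK members held exactly 3 UMIs of the gene pair, and 60 PBS and 79 AKK barcodes that met all other terms held 2.

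Acod1 and Cxcl3 were also abundant in the neutrophils that kept Cxcr2, which the rule did not ask to hold them. The Cxcr2-positive neutrophils (2 or more Cxcr2 UMIs, other terms alike but with no minimum of Acod1 and Cxcl3) were 879 PBS and 1118 AKK barcodes, and 98.3% and 97.8% of them held a UMI of Acod1 or Cxcl3. Among barcodes of at most 10000 UMIs, Acod1 was at 4018 CPM in PBS members and 5239 in AKK members, that is 1.06 times (1.03 to 1.09) and 0.894 times (0.877 to 0.911) its level in Cxcr2-positive neutrophils. Cxcl3 was 1.19 times (1.16 to 1.23) and 1.32 times (1.28 to 1.36) as high. In Cxcr2-positive neutrophils of any depth, Acod1 was detected in 95.3% (PBS) and 96.6% (AKK) and Cxcl3 in 69.4% and 58.7%. The broad Acod1 and patchy Cxcl3 were thus not particular to the members. These are the selecting genes, so the values describe the sets and test nothing. The low set, at most 2 UMIs of both genes together, was smaller (274 PBS and 432 AKK barcodes) and mixed. Of its barcodes, 33.2% and 42.8% were over 10000 UMIs, and the lymphoid and mast cell genes Gzma, Eomes, Skap1 and Cma2 were among the 10 genes highest in it relative to the members.

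**Figure D1:**
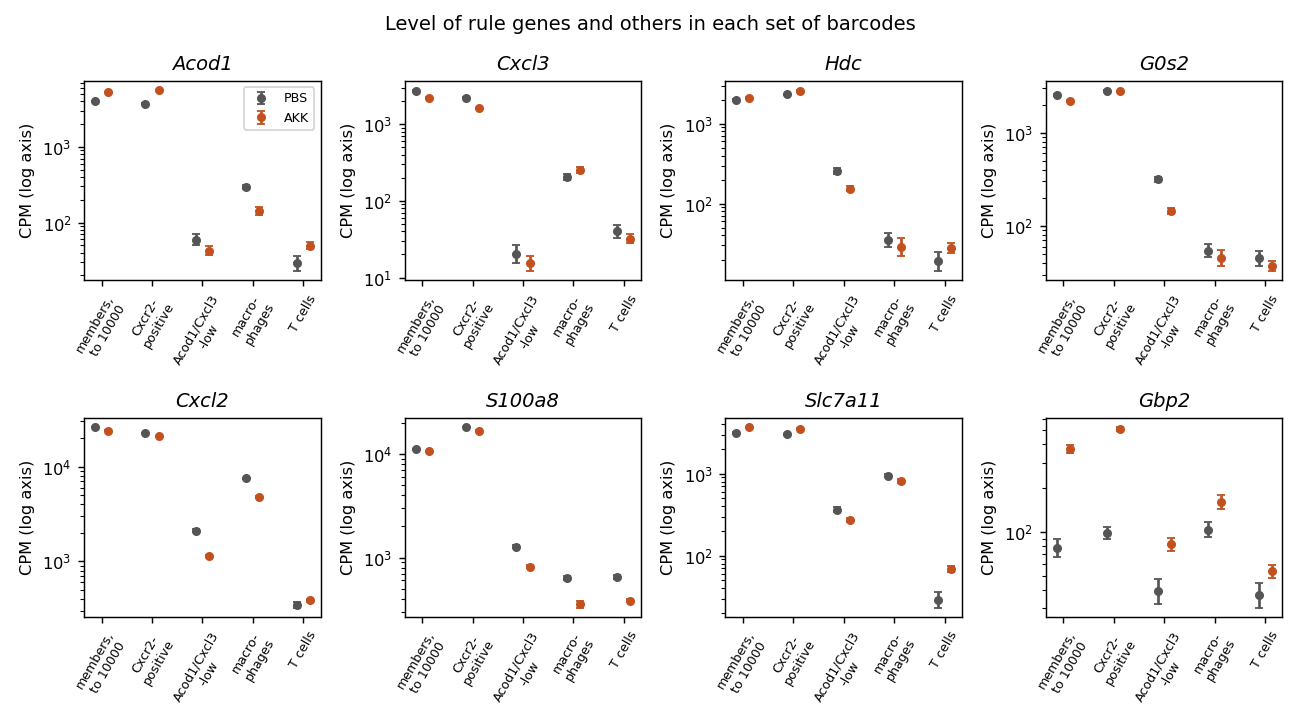
Level of 8 genes in CPM (log axis) in members of at most 10000 UMIs and in 4 other sets of barcodes, in the PBS (grey) and AKK (orange) libraries; bars are 95% counting intervals, and the other sets hold barcodes of any depth. Acod1 and Cxcl3, genes of the rule, are high in both members and Cxcr2-positive neutrophils, whereas S100a8 is lower in members, and Gbp2 is higher in AKK than in PBS in both neutrophil sets.

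The members were about as frequent in both libraries. They were 12.8% (11.9 to 13.8) of the 4833 PBS barcodes that passed the quality limits and 13.1% (12.3 to 13.9) of the 6517 AKK barcodes, a difference of 0.296 points (-0.961 to 1.54). Among barcodes with 2 neutrophil genes and none of the excluded lineage genes they were 31.5% of 1968 and 32.5% of 2631. Over all barcodes within the quality limits, the balance differed with depth. From 500 to under 3000 UMIs the members were 18.7% of PBS and 26.7% of AKK barcodes, a difference of 8.08 points (3.81 to 12.2), and from 5000 to under 10000 UMIs they were 12.7% and 7.59% (-5.09 points, -7.21 to -3.04). Among barcodes with 2 neutrophil genes and none of the excluded lineage genes, these differences were 6.46 points (-1.03 to 13.8) and -3.67 points (-8.16 to 0.868). The rule counts raw UMIs, so a shallow barcode more easily stays at or under 1 UMI of Cxcr2. It also more easily misses the 3 UMIs of Acod1 and Cxcl3. The part of either term in these shares was not tested. With the rule applied to barcodes thinned to 2000 UMIs, 1000 PBS and 1197 AKK barcodes qualified, and the share was 22.8% in PBS and 19.6% in AKK (-3.17 points, -4.77 to -1.58).

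Among the members, a higher count of Acod1 and Cxcl3 went with more of other inflammatory chemokine RNA, in both libraries. Over members thinned to 1883 UMIs, the genes most alike to the summed Acod1 and Cxcl3 count, by the smaller of the libraries' Spearman coefficients, were Cxcl2 (0.44 over 564 PBS and 0.60 over 761 AKK barcodes), Ccl3 (0.44 and 0.43), Srgn, Fth1, Hcar2, Cd53, Nfkbia, Basp1, Lilr4b and Clec4d. Ccl3 encodes a chemokine for monocytes and T cells, Srgn the proteoglycan core of secretory granules, Hcar2 the receptor of niacin and ketone bodies, and Nfkbia the inhibitor that NF-kB induces. The lowest by the same ranking were the protease inhibitor gene Cst3 (-0.26 and -0.25) and Tmsb4x, an actin-binding peptide gene (-0.23 and -0.24). Barcodes of 1 library share its free RNA and these values are descriptions. Members above 10000 UMIs are included here, and no values without them are given. Hdc was in 64.8% of PBS and 56.6% of AKK members at 0 to 4 UMIs of Acod1 and Cxcl3, and in 86.4% and 81.3% at 20 and over. Mean UMIs of the mitochondrial gene mt-Co1 were 6.97 and 5.98 in the lowest bin, and 3.0 and 2.22 in the highest. The part of other cells in this gradient was not tested. Mean Cxcl2 went from 29.7 UMIs per barcode at 0 to 4 UMIs of Acod1 and Cxcl3 to 72.4 at 20 and over in PBS, and from 19.3 to 69.0 in AKK. Mean Ccl3 went from 2.94 to 12.8 in PBS and from 1.82 to 14.2 in AKK. Mean S100a8 over the successive bins was 15.9, 20.5, 19.1 and 22.7 UMIs in PBS and 14.2, 21.6, 21.4 and 16.1 in AKK, where it was highest in the middle bins.

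Gbp2, of the interferon-gamma list, and B2m, of the MHC class I list, had higher means at the upper end of this gradient in the AKK library. No count over these lists was made along it. Gbp2, a GTPase that interferon-gamma induces, was detected in 14.3% of AKK members at 0 to 4 UMIs of Acod1 and Cxcl3 and in 36.8% at 20 and over, with means of 0.297 and 1.48 UMIs. In PBS it was in 5.03% and 7.27%. B2m, the light chain of MHC class I, went from 2.86 to 3.94 UMIs in AKK and from 2.15 to 2.06 in PBS. Cd274, which encodes the checkpoint ligand PD-L1, went up along it in both libraries, from 1.62 to 3.24 UMIs in PBS and from 1.56 to 4.42 in AKK. Whether the slopes differ between libraries was not tested.

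**Figure D2:**
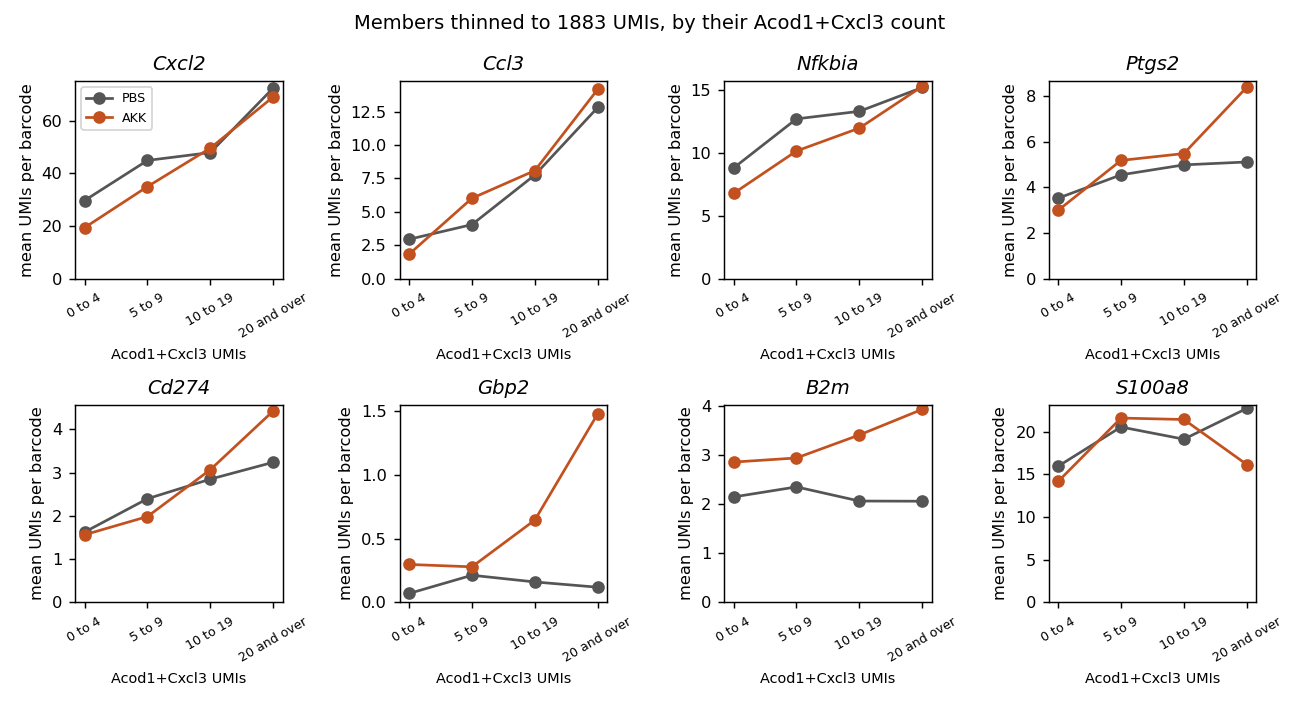
Mean UMIs per barcode (vertical axes, from 0) of 8 genes in members thinned to 1883 UMIs, grouped by their own thinned Acod1 and Cxcl3 count (horizontal axes) in the PBS (grey; 159, 132, 163 and 110 barcodes) and AKK (orange; 182, 169, 228 and 182) libraries. Cxcl2 and Ccl3 climb in both libraries, while Gbp2 climbs from 0.297 to 1.48 UMIs in AKK and lies between 0.0692 and 0.212 in PBS. Members above 10000 UMIs before thinning are included.

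Against Cxcr2-positive neutrophils of the same library, the members held more hypoxia and glycolysis RNA and less granule RNA. This comparison sits within each library, and both libraries were asked for a ratio of at least 1.5 in the same direction. Over barcodes of any depth, 27.2% of the 9060 genes with at least 100 UMIs were higher in members in both libraries and 3.69% lower. Between barcodes of at most 10000 UMIs the shares were 7.04% and 1.54% of 7333 genes, and the values below are from these. Of 28 measured genes of the glycolysis and hypoxia list, 11 were higher and 0 lower, with median log2 ratios of 0.66 in PBS and 0.55 in AKK against 0.05 and 0.14 over all genes. P4ha1, a collagen prolyl hydroxylase subunit induced by HIF-1, was at 362 CPM in PBS members and 94.2 in Cxcr2-positive neutrophils (3.84-fold, 3.41 to 4.32), and at 250 and 70.0 in AKK (3.57-fold, 3.14 to 4.07). Hilpda, a hypoxia-induced lipase inhibitor, was 2.73-fold (2.51 to 2.97) and 3.85-fold (3.46 to 4.28) higher. Bnip3, a mitophagy receptor, was 2.61-fold and 2.95-fold higher, and Ldha, lactate dehydrogenase, 2.56-fold and 2.23-fold. The glucose transporter gene Slc2a1 was at 1.37 and 1.2, within the size set for a call.

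Granule genes went the other way. Of 29 measured, 9 were lower in both libraries and 0 higher, with medians of -0.34 and -0.44. S100a8 was at 0.583 (0.575 to 0.591) and 0.589 (0.582 to 0.597) of its level in Cxcr2-positive neutrophils, and Retnlg, a resistin-like protein of mature neutrophils, at 0.440 and 0.522. The peptidoglycan receptor gene Pglyrp1 was at 0.517 and 0.553, haptoglobin (Hp) at 0.509 and 0.587, and the granule gene Wfdc21 at 0.525 and 0.587. The list of maturation and trafficking genes had 7 of 30 lower and 0 higher. Ly6g, the antigen used to gate neutrophils, was at 0.285 and 0.456, on levels of 13.4 and 9.98 CPM in members.

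The list of CC chemokines had 3 of 12 higher and 0 lower. The CXCR2 ligand list, which holds the rule genes Cxcr2 and Cxcl3, had 0 of 6 higher and 1 lower. Ccl3 was at 1.73 (1.68 to 1.78) and 1.68 (1.64 to 1.72). Hmox1, the haem oxygenase that NRF2 drives, was at 3.43 (2.96 to 3.98) and 2.40 (2.02 to 2.85). Among the 10 genes ranked highest by the smaller ratio over barcodes of any depth were Arg1, Msr1 and Sdc4, which macrophages also express. Arg1, arginase 1, was 14.8-fold and 15.8-fold higher in all members, with 88.7% of its PBS and 76.2% of its AKK UMIs in members above 10000 UMIs, and 2.26-fold (1.62 to 3.16) and 7.25-fold (5.28 to 10.1) higher without these. Plcb1 was 5.67-fold and 6.32-fold higher without them. The type I interferon list differed between the libraries in this contrast, with a median of -0.06 in PBS and -0.44 in AKK. The members were a little shallower than the Cxcr2-positive barcodes (medians of 5120 and 4401 UMIs), and the part of depth in these ratios was not tested.

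**Figure D3:**
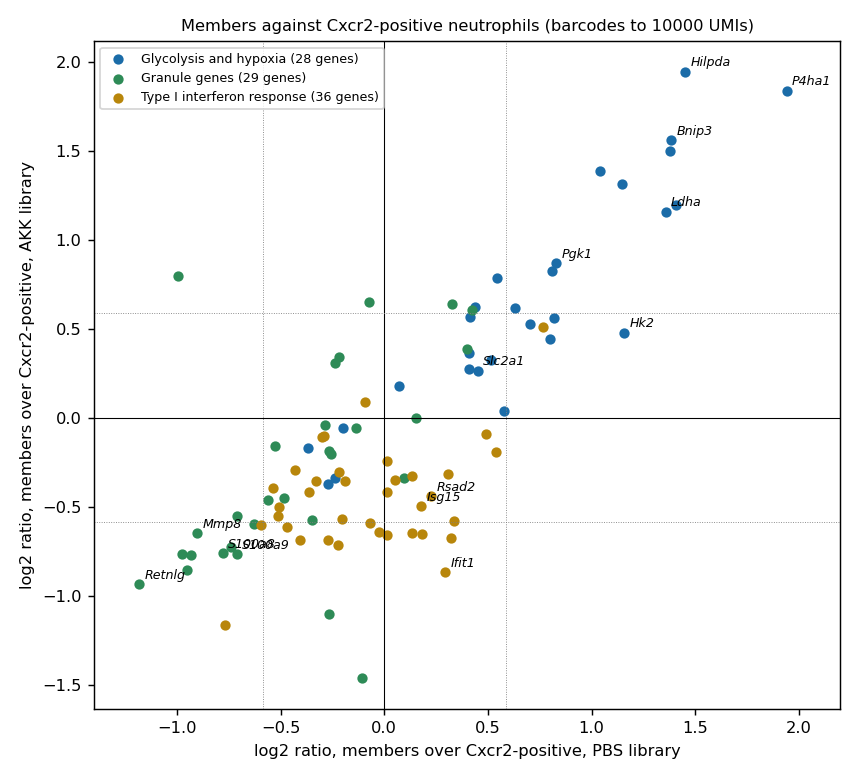
Log2 ratio of CPM in members over Cxcr2-positive neutrophils, in the PBS (horizontal) and AKK (vertical) libraries, for genes of 3 lists over barcodes of at most 10000 UMIs; dotted lines mark 1.5-fold. Glycolysis and hypoxia genes lie mostly at the upper right, with P4ha1 at 3.84-fold and 3.57-fold, granule genes mostly at the lower left, and most type I interferon genes below 0 in AKK.

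Between the libraries, 22.6% of the 9432 genes with at least 50 UMIs were at least 1.5-fold higher in AKK than in PBS members and 5% were lower by that factor. Over members of at most 10000 UMIs the shares were 12.4% and 4.94% of 6879 genes. The median log2 ratio of all genes was 0.16 and 0.10, so a list is read against these. In what follows the first ratio, AKK over PBS, is over all members and the second over those of at most 10000 UMIs.

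The selecting genes themselves differed in opposite ways. Acod1 was at 3003 CPM in PBS and 3459 in AKK members, ratios of 1.15 (1.12 to 1.18) and 1.30 (1.27 to 1.34). Cxcl3 was at 2077 and 1504 CPM, ratios of 0.724 (0.701 to 0.748) and 0.812 (0.785 to 0.840). G0s2 was at 0.764 and 0.856. Hdc was at 0.933 and 1.05, Il1r2 at 0.900 and 1.07, and Csf3r at 1.04 and 1.16, so none of these 3 was past 1.5-fold. In the list of itaconate and NRF2 genes, which holds the rule gene Acod1, 3 of 14 were higher and 2 lower over all members. Without the deep ones 1 of 13 was higher and 2 lower. The share of higher genes was no larger than over all genes. That of lower genes was larger than the 5% and 4.94% over all genes, but on 2 genes each time. Slc7a11, the cystine importer and an abundant NRF2 target, was at 2439 and 2491 CPM, ratios of 1.02 (0.993 to 1.05) and 1.17. Hmox1 was at 178 and 94.8 CPM, ratios of 0.532 (0.470 to 0.602) and 0.515 (0.447 to 0.592), and Gclc, a subunit of the glutathione-making ligase, at 0.588 and 0.575, with thinned shares (11.9% and 8.15%) no higher than those of T cells. Gclm, the other subunit, went the opposite way at 2.58 (1.89 to 3.59) and 1.91 (1.17 to 3.23), from 52 and 179 UMIs.

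Chemokines showed no common direction. Cxcl2, the most abundant of them, was at 20562 CPM in PBS and 16284 in AKK, ratios of 0.792 (0.784 to 0.80) and 0.918 (0.908 to 0.928). None of the 6 measured genes of the CXCR2 ligand list was past 1.5-fold in either direction. That list holds Cxcl3 and Cxcr2, on which the members were chosen, so its count partly follows from the choice. Ccl4, a chemokine for monocytes and T cells, was at 1852 and 2396 CPM, with ratios of 1.29 (1.25 to 1.33) and 1.57 (1.52 to 1.62), while its neighbour Ccl3 was at 1.01 and 1.16. Thinned members held Ccl4 in 51.2% (PBS) and 51.5% (AKK), so the share with a UMI did not follow its level. Ccl6 was at 2173 and 1161 CPM, ratios of 0.534 (0.516 to 0.553) and 0.601 (0.579 to 0.624), and its share of thinned members was 79.4% in PBS and 62.0% in AKK, against 14.4% and 8.15% of T cells. Ccl17, a dendritic cell chemokine, was at 0.0392 over all members and 0.902 (0.348 to 2.37) without the deep barcodes.

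NF-kB genes lay below the other genes over all members and closer to them without the deep barcodes. Il1b was at 6022 and 5950 CPM, with ratios of 0.988 (0.970 to 1.01) and 1.14 (1.12 to 1.16). The NF-kB and TNF list had 0 of 28 genes higher and 2 lower, with 23 below 1 and a median of -0.21 (-0.36 to -0.12) over all members, and 0 higher and 1 lower of 26 with a median of -0.05 without the deep ones. Nfkbia was at 0.774 and 0.888 and Nfkbiz, a co-activator of NF-kB targets, at 0.895 and 1.02. Map3k8, the kinase TPL2, was at 151 and 83.2 CPM, ratios of 0.550 (0.481 to 0.628) and 0.611 (0.528 to 0.707). Tnf was at 0.700 (0.654 to 0.749) over all members and 0.965 (0.895 to 1.04) without the deep ones. Cd14, the lipopolysaccharide co-receptor, was at 1475 and 957 CPM, ratios of 0.649 and 0.717. Ptgs2, the inducible cyclooxygenase, was at 1.06 and 1.2.

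Interferon-gamma targets were higher in AKK members as a group. Of 27 measured genes of that list, 11 were at least 1.5-fold higher and 0 lower, with a median log2 ratio of 0.42 (0.22 to 0.81). Without the deep barcodes 14 of 23 were higher, with a median of 0.79. Gbp2 was at 81.6 CPM in PBS and 274 in AKK members, ratios of 3.36 (2.96 to 3.84) and 4.82 (4.13 to 5.64). After thinning it was in 7.45% of PBS and 23.5% of AKK members, against 6.12% and 8.44% of T cells. The PBS share thus lay near that of T cells and the AKK share above it. How much of the Gbp2 in T cells is free RNA and how much their own was not tested. Ifi47, another interferon-induced GTPase gene, was at 26.3 and 68.5 CPM, ratios of 2.61 (2.06 to 3.32) and 3.47 (2.61 to 4.68). Its thinned shares, 3.37% and 9.72%, did not exceed those of T cells (8.99% and 9.59%). Cxcl9, a CXCR3 ligand, was at 3.14 and 23.7 CPM, ratios of 7.56 (4.07 to 15.6) and 8.89 (3.87 to 25.1), but 26.1% of its AKK UMIs came from 1 barcode. Its level was also under 5 times the level estimated for free RNA. Iigp1 was 2.25-fold higher over all members and at 0.492 (0.147 to 1.49) without the deep ones. The more abundant Jak2 (0.730 and 0.864) and Cd274 (0.925 and 1.09) were not among the higher genes.

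MHC class I genes were above 1 in 18 of 18 cases, with 6 at least 1.5-fold higher over all members (median 0.48, 0.26 to 0.77) and 15 without the deep barcodes (median 0.75). B2m was at 1157 CPM in PBS and 1594 in AKK, ratios of 1.38 (1.33 to 1.43) and 1.54 (1.47 to 1.62). It was in 79.8% and 90.7% of thinned members. H2-K1, a heavy chain, was at 738 and 1119 CPM, ratios of 1.52 (1.45 to 1.59) and 1.67 (1.57 to 1.76), and H2-T22 at 1.88 (1.5 to 2.37) and 2.55. Reads of the class I heavy chain genes can be split between near-identical copies. T cells held B2m in 92.8% and 95.9% and H2-K1 in 95.3% and 94.6%, more than the members did, and 10 of the 18 genes were above the level that the estimated free RNA could give 5 times over (a median of 15.7% of the library's profile in PBS and 15.8% in AKK). Psmb8, an immunoproteasome subunit (1.62 and 2.47), was not among those 10. MHC class II genes turned around with the deep barcodes, at a median of -0.33 over all members and 0.49 without them. Cd74, the invariant chain, was at 0.721 and 1.44, and only 3 of 11 class II genes were above the free RNA limit.

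Type I interferon genes showed no common direction over all members, with 2 of 37 higher, 5 lower and a median of -0.07 (-0.30 to 0.20). Without the deep barcodes 7 of 36 were higher and 0 lower, with a median of 0.20. Samhd1, a dNTP hydrolase, was at 701 and 886 CPM, ratios of 1.27 (1.2 to 1.33) and 1.56 (1.47 to 1.65). Ifitm1 was lower in both versions, at 1398 and 921 CPM and ratios of 0.659 and 0.703. Ifih1, the RNA sensor MDA5, was at 0.361 (0.319 to 0.408) over all members and 0.811 (0.681 to 0.966) without the deep ones, which held 67.0% of its PBS UMIs. Irf9 was at 0.603 and 1.03.

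**Figure D4:**
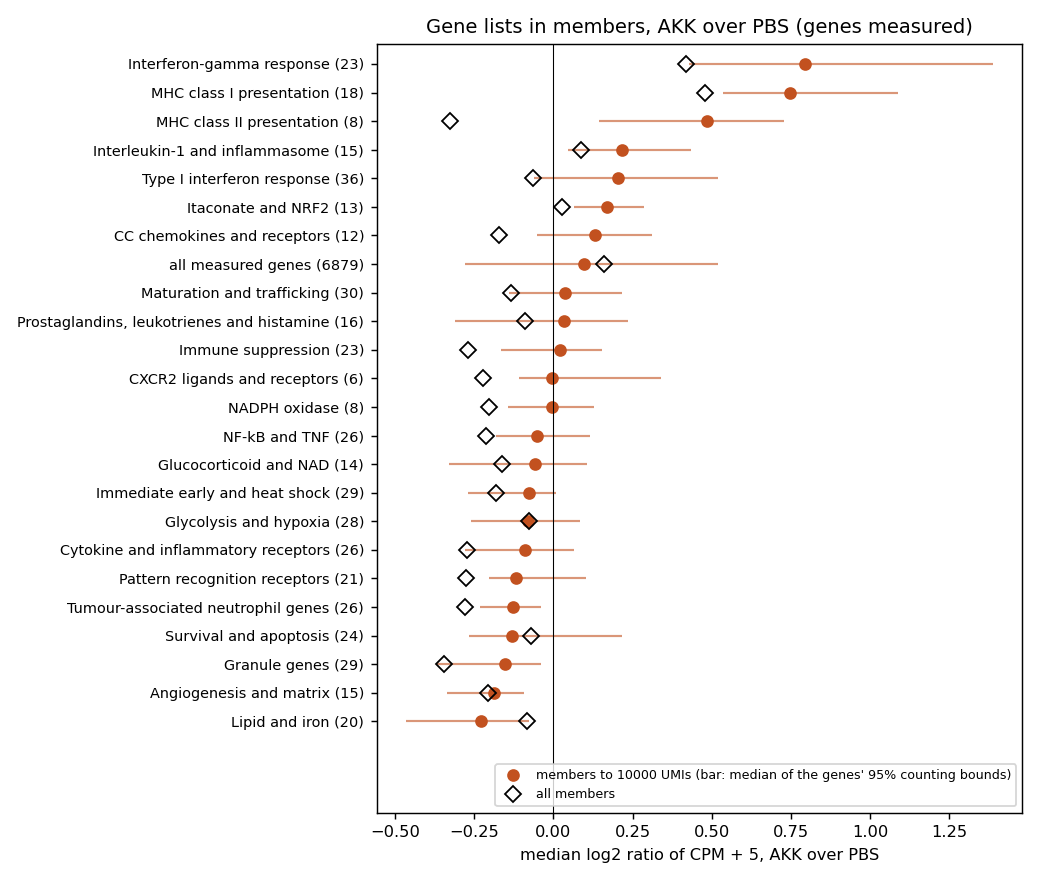
Median log2 ratio of CPM + 5, AKK over PBS, for 23 gene lists and all measured genes in members: filled circles for members of at most 10000 UMIs, with bars from the median lower to the median upper counting bound of the list's genes, and open diamonds for all members. The interferon-gamma (0.79) and MHC class I (0.75) lists lie highest in the filled circles, and the MHC class II list changes side between the circles and the diamonds.

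Granule genes were more often lower than higher in AKK members, and also in AKK Cxcr2-positive neutrophils. Of 30 granule genes, 11 were at least 1.5-fold lower and 2 higher over all members (median -0.34, -0.49 to -0.23), and 9 of 29 lower and 2 higher without the deep ones (median -0.15). In Cxcr2-positive neutrophils of any depth 8 of 29 granule genes were lower and 0 higher (median -0.24), against 478 lower and 857 higher of 8480 genes. Retnlg was there at 4763 CPM in PBS and 1722 in AKK, so the lower granule RNA was not particular to the members. In members the maturation and trafficking list had 5 of 30 lower and 2 higher at any depth (median -0.13), and 3 lower and 1 higher without the deep ones (median 0.036). Retnlg in members was at 1662 CPM in PBS and 663 in AKK, ratios of 0.399 (0.382 to 0.417) and 0.450 (0.430 to 0.471), and was in 54.3% and 37.2% of thinned members. Cd177, a surface partner of proteinase 3, was at 125 and 54.1 CPM, ratios of 0.434 (0.370 to 0.508) and 0.501. It was in 22.5% of PBS and 9.99% of AKK thinned members and in under 1% of T cells (0.719% and 0.429%). S100a9 was at 0.729 (0.718 to 0.739) and 0.816 (0.804 to 0.828), and S100a8 at 0.831 and 0.958, so the very abundant genes differed less than Retnlg did. Chil3, a chitinase-like protein that monocytes share, was at 0.288 and 0.230 but within the free RNA limit. Prok2, a chemoattractant of mature neutrophils, was at 0.240 (0.157 to 0.359) and 0.176 from 103 and 33 UMIs.

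Genes tied to immune suppression and tumour-associated neutrophils were mixed. The suppression list had 1 of 23 higher and 4 lower, with a median of -0.27 over all members and 0.02 without the deep ones. Spp1, osteopontin, was at 443 and 792 CPM, ratios of 1.79 (1.69 to 1.90) and 1.64 (1.5 to 1.79), with 60.1% of its AKK UMIs in deep barcodes. Wfdc17 was at 1280.2 and 598 CPM, ratios of 0.467 (0.446 to 0.490) and 0.518. Arg1 was at 0.907 (0.822 to 1.0) over all members and 2.09 (1.62 to 2.72) without the deep ones, on 34.0 CPM in PBS and 71.2 in AKK. It was in 5.32% of PBS and 4.86% of AKK thinned members. The tumour-associated list had 2 of 29 higher and 7 lower over all members, and 2 of 26 higher and 2 lower without the deep ones. Fth1, ferritin heavy chain, was its most abundant gene, at 0.654 (0.646 to 0.663) and 0.705 (0.696 to 0.716).

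Few glycolysis and hypoxia genes differed between the libraries. The list had 0 of 28 higher and 3 lower, with medians of -0.08, in both versions, and all 28 were above the free RNA limit. Hk2, hexokinase 2, was at 689 and 426 CPM, ratios of 0.619 (0.583 to 0.657) and 0.626 (0.584 to 0.671). Slc2a1 was at 426 and 265 CPM, ratios of 0.623 (0.577 to 0.672) and 0.660, and Hilpda at 0.657 and 0.714, past 1.5-fold over all members only. P4ha1, at 0.679 and 0.692, was not past 1.5-fold. Pkm, the last enzyme of glycolysis, was at 1.19 and 1.15. Hilpda was in 35.8% of PBS and 21.2% of AKK thinned members.

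The immediate early and heat shock list had 4 of 29 lower and 1 higher over all members, and 7 lower and 1 higher without the deep ones. Jun was at 743 and 410 CPM, ratios of 0.552 (0.520 to 0.586) and 0.546 (0.510 to 0.584). The inducible HSP70 genes Hspa1a and Hspa1b, near-identical copies whose reads may be split, were at 0.211 and 0.303 over all members and at 0.256 and 0.376 without the deep ones, but 24.7% and 31.2% of their PBS UMIs came from 1 barcode each. They were in 8.51% and 7.09% of PBS thinned members and in 2.50% and 3.81% of AKK ones. Egr3 was at 51.7 and 97.1 CPM, ratios of 1.88 (1.58 to 2.25) and 2.2 (1.82 to 2.67), while Egr1 was at 0.933 and 1.07. Bcl2l1, the survival factor BCL-XL, was at 394 and 235 CPM, ratios of 0.595 and 0.603, and Trp53inp1 was at 0.478 and 0.466. The glucocorticoid-induced genes Tsc22d3 and Ddit4 were at 0.553 and 0.492, and at 0.520 and 0.444 without the deep barcodes. Trp53inp1 and Tsc22d3 were each in fewer thinned members than T cells (12.9% of PBS members for both, against 25.5% and 23.4%).

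Outside the lists, the genes with the highest ratios over all members rested on few deep barcodes. Of the 10 with the highest AKK over PBS ratio and at least 100 UMIs, 9 had an interval that included 1, or no ratio, once members above 10000 UMIs were left out, and the other, Mcpt1, was then at 0.625 (0.476 to 0.818). They included the mast cell and basophil protease genes Mcpt1, Mcpt2, Mcpt4, Mcpt8, Prss34 and Cpa3, and 1 barcode held 95.8% of the Mcpt1 and 99.2% of the Prss34 UMIs of the AKK members. Of the 10 with the lowest ratio, 5 stayed lower by at least 1.5-fold without the deep barcodes. Prrg1 was at 0.180 and 0.203, Efr3b at 0.199 and 0.194, Tg at 0.280 and 0.327 and Plet1 at 0.304 and 0.452. Crispld2, a secreted protein gene, was at 94.7 and 27.0 CPM, ratios of 0.285 (0.230 to 0.350) and 0.319 (0.256 to 0.394), and was in 14.9% of PBS and 5.39% of AKK thinned members against 0.360% and 1.0% of T cells. Among members of at most 10000 UMIs, other genes outside the lists were higher in AKK. Csta2 was at 5.42 (3.84 to 7.84) and Soga1 at 3.99 (2.94 to 5.50). Thinned members held Csta2 in 2.30% (PBS) and 2.50% (AKK) and Soga1 in 1.95% and 5.26%. Enah was lower there, at 0.266 (0.203 to 0.344).

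The AKK over PBS ratio of type I interferon genes was smaller in members than in Cxcr2-positive neutrophils. Over barcodes of any depth the median log2 ratio of the type I list was -0.07 in members and 0.53 in Cxcr2-positive neutrophils, that of the interferon-gamma list 0.42 and 0.91, and that of the MHC class I list 0.48 and 0.68. The values that follow are over barcodes of at most 10000 UMIs, for 418 list genes, as the members' ratio divided by that of the Cxcr2-positive neutrophils, and its median over all of them was 0.982. Over 36 type I interferon genes it was 0.758, with 30 below 1, and the median ratio was 1.16 in members and 1.52 in Cxcr2-positive neutrophils. Rsad2, the antiviral enzyme viperin, was at 284 and 372 CPM in PBS and AKK members, a ratio of 1.31 (1.19 to 1.44) against 2.08 (1.94 to 2.24). Isg15, a ubiquitin-like modifier, was at 1.08 (0.962 to 1.22) against 1.73 (1.58 to 1.88), and Ifit1 at 1.22 (0.979 to 1.53) against 2.74 (2.33 to 3.23). Over 22 interferon-gamma genes the median quotient was 0.911, and over 18 MHC class I genes 1.07. Gbp2 was at 4.82 against 5.30, a quotient of 0.908 (0.755 to 1.09), and B2m at 1.54 against 1.64. With the deep barcodes kept, the quotient of Gbp2 was 0.648 (0.552 to 0.760) and that of B2m 0.835 (0.793 to 0.879). Gbp5 was an exception in its list, at 2.90 against 5.66, a quotient of 0.512 (0.355 to 0.736). Of the other genes, Hk2 was at 0.626 against 1.0, Jun at 0.546 against 0.840, and Acod1 at 1.30 against 1.55 (1.52 to 1.57). Cxcl3 was lower in AKK in both sets, at 0.812 and 0.733.

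**Figure D5:**
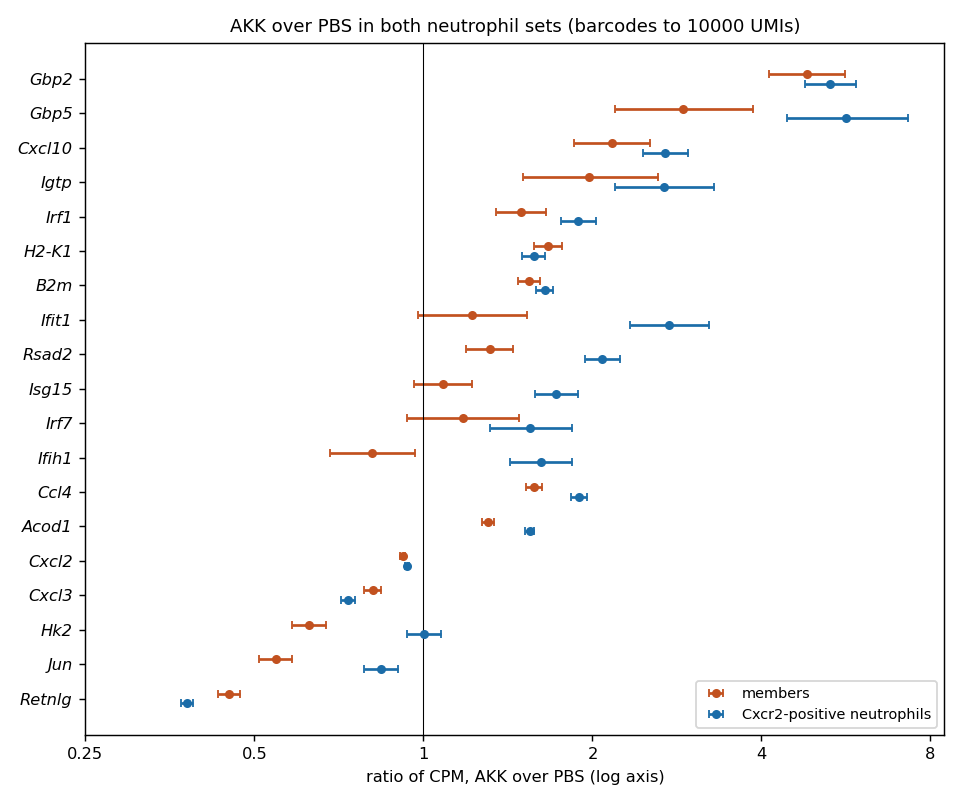
Ratio of CPM, AKK over PBS (log axis), for 19 genes in members (orange) and Cxcr2-positive neutrophils (blue) of at most 10000 UMIs, with 95% counting intervals. Gbp2, H2-K1 and B2m lie close together in both sets, whereas Ifit1, Rsad2, Isg15 and Ifih1 lie further right in the Cxcr2-positive neutrophils, with Ifih1 on opposite sides of 1.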

How the data were processed

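The deposited matrices hold whole-number UMI counts per gene and barcode, which the authors made with Cell Ranger (7.1.0 per the file headers, 5.0.1 and mm10 per the submitters' processing notes). For the intron setting and gene annotation, no value is given in the sources used here. The sort gated out doublets per the labels' protocols, and no doublet was removed here except in an alternative based on Scrublet scores. UMIs of members were summed per library, scaled to CPM of the set and compared as ratios with exact conditional binomial 95% intervals. Shares have exact Clopper-Pearson and differences Newcombe intervals. A gene counted as higher or lower at 1.5-fold with at least 50 UMIs over both libraries. List medians use CPM + 5. The free RNA share is the median, over 24 lymphoid marker genes, of members' CPM over that of all kept barcodes, and a gene is above its limit at 5 times that level. Thinned values use 1883 UMIs, the members' 10th percentile. The members and the 23 lists were chosen with earlier results of these data known. Genes were named from the groups that follow, and not every gene of a group is named. They were the rule genes and, in each list, up to 4 with the largest ratio and the 2 most abundant. Outside lists they were the 10 highest and 10 lowest ratios (at least 100 UMIs, above the free RNA limit). The last groups were the 10 highest and lowest against the low and the Cxcr2-positive sets, and the 10 most alike to Acod1 and Cxcl3. Genes named beyond this rule were chosen after their values were seen. They lie in the contrast with Cxcr2-positive neutrophils, in its quotient, and outside the lists over members of at most 10000 UMIs. Python 3.11.15, numpy 2.4.6, scipy 1.17.1, pandas 2.3.3 and scanpy 1.11.5 were used, and the ratio code was tested on simulated data.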

Additional observations from a re-analysis of the deposited data

Results flagged for a closer look

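Ifih1 differed in direction between the members and the Cxcr2-positive neutrophils, with both intervals clear of 1. Over barcodes of at most 10000 UMIs its AKK over PBS ratio was 0.811 (0.681 to 0.966) in members and 1.62 (1.43 to 1.84) in Cxcr2-positive neutrophils, a quotient of 0.501 (0.405 to 0.619). The intervals cover counting error only, and the difference was not tested. Of 418 list genes with both ratios it was the 1 gene that lay on opposite sides of 1, with a ratio past 1.5-fold in at least one set, both with and without the deep barcodes.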

How the results depend on the processing

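No paired analysis was possible because each group is 1 library. Of the alternatives, those that limit members to 10000 UMIs were chosen after seeing the data. The share difference lay within its counting interval under 4 alternatives, and was -3.17 points with the rule on thinned barcodes. Genes at least 1.5-fold higher numbered 2136, and 910 with at least 6 UMIs of Acod1 and Cxcl3, 1421 with the thinned rule, 727 and 6598 at minimums of 200 and 1 UMIs, 1090 above the free RNA limit, 852 for members to 10000 UMIs and 813 with these weighted alike. Lower genes numbered 472, and 226 and 3415 at those minimums. The interferon-gamma and MHC class I medians stayed within their bounds under every alternative run. The NF-kB median of -0.21 was -0.063 with 6 UMIs, -0.059 with the thinned rule, -0.065 weighted alike, -0.053 to 10000 UMIs and -0.047 with both. The granule median of -0.34 was -0.21 with 6 UMIs, -0.13 weighted alike, -0.15 to 10000 UMIs and -0.16 with both. Signs turned for the CC chemokine median (0.023 with 6 UMIs, 0.16 with the thinned rule, 0.13 to 10000 UMIs, 0.17 with both), the MHC class II median (0.64 with the thinned rule, 0.15 weighted alike, 0.49 to 10000 UMIs, 0.42 with both), the suppression median (0.065 with 6 UMIs, 0.013 weighted alike, 0.022 to 10000 UMIs, 0.030 with both) and the glucocorticoid and NAD median (0.072 with the thinned rule). They also turned for Irf9 (1.08 with 6 UMIs, 1.14 with the thinned rule, 1.03 to 10000 UMIs, summed or weighted alike), Mcpt1 (0.709, 0.641, 0.625 and 0.669 in the same order), Iigp1 (0.781 weighted alike) and Plpp3 (0.486 weighted alike). The cause of each was not tested.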
